A study of Drosophila melanogaster with 8 samples.

Results

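Heat shock protein genes were followed in RNA-seq libraries of enterocyte preparations, made from posterior midguts of adult Drosophila melanogaster females. The 10 genes named for this purpose were Hsp22, Hsp23, Hsp26, Hsp27, Hsp67Bc, Hsp68, Hsp83, Hsc70-4, DnaJ-1 and the regulator Hsf, chosen by symbol. By FlyBase identifier, 9 of the 10 were matched among the 9177 genes of the count table, and all 9 were among the 8775 genes tested. Hsp22 was not analysed here. In the Ensembl annotation each of its 1900 exonic bases also lies in CG4456 on the same strand.

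The SvbAct group (3 libraries) carried UAS-SvbACT::GFP over tubGal80TS and expressed a constitutive activator form of the transcription factor Shavenbaby fused to GFP. The RNAiSvb group (3 libraries) carried UAS-SvbRNAi over tubGal80TS, a hairpin transgene against the same factor. The Ctrl group (2 libraries) came from a cross of the driver to Canton-S and carried tubGal80TS over a wild-type chromosome. All 3 groups were heterozygous for a chromosome with MyoIA-Gal4 and UAS-GFP, so Ctrl had the driver, the repressor and GFP but no further UAS transgene. Since Ctrl was a cross to Canton-S, transgene and genetic background cannot be told apart in the contrasts with Ctrl. All flies were virgin females moved to 29 °C at 3 days of age and dissected 6 days later, at 9 days. MyoIA-Gal4 drives expression in enterocytes, which absorb nutrients in the gut, although the strain label names intestinal stem cells as the place of induction. Each preparation pooled more than 20 flies, and 1 hairpin line was used.

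Every preparation was digested at 37 °C for 10 minutes before lysis, and fragments held back by a 70 µm mesh were kept. That is a temperature at which fly heat shock genes are commonly induced in the laboratory. No undigested tissue was analysed here, so what the digestion contributed to the levels was not tested.

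Heat shock proteins are chaperones, which keep other proteins folded, refold damaged ones or pass them on for degradation. In flies a single factor, Hsf, forms trimers on heat or proteotoxic stress and binds the promoters of the inducible chaperone genes. The small heat shock proteins hold unfolding clients in a soluble state without ATP, the HSP70 proteins refold them with ATP and HSP40 helpers such as DnaJ-1, and HSP90 (Hsp83 in flies) matures kinases and receptors. Hsc70-4 is an HSP70 protein made in unstressed cells.

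Library totals ran from 15450011 to 23748649 counts, of which the 9 genes took between 0.524% and 0.840%. The targeted gene ovo, which encodes Shavenbaby, had 868, 1189 and 762 counts in SvbAct, 40, 26 and 61 in the libraries labelled RNAiSvb, and 9 and 2 in Ctrl. The hairpin libraries thus did not have fewer ovo counts than Ctrl, and they are called the libraries labelled RNAiSvb below. Their ovo estimate was above Ctrl (log2 fold change 2.63) without an adjusted p under 0.05 (edgeR adjusted p 0.0807). With 9 and 2 counts in Ctrl, a fall below it could hardly be seen. Whether reads of the transgenes were counted as ovo was not tested, so these counts do not show whether the hairpin acted. The 8 enterocyte markers (Myo31DF, mex1, nub, Ssk, mesh, Tsp2A, alphaTry and betaTry) summed to 10984 to 13682 CPM (counts scaled by library size and TMM factor) in SvbAct, 10383 to 12827 in the libraries labelled RNAiSvb and 9716 to 10537 in Ctrl. Single markers moved apart, with nub higher in SvbAct than in Ctrl (log2 fold change 1.21, edgeR adjusted p 0.0107) and alphaTry lower in SvbAct than in the libraries labelled RNAiSvb (-0.87, edgeR adjusted p 0.0376). Visceral muscle transcripts differed more between libraries. The 8 muscle markers (Mhc, Act57B, Mlc2, up, bt, sls, Mlc1 and Prm), none of them at 0 in a library, summed to 909.7, 749 and 249 CPM in SvbAct, 769, 259 and 1602 CPM in the libraries labelled RNAiSvb, and 674 and 359 CPM in Ctrl. The listed progenitor markers esg and Dl were not tested here. Of 6 progenitor markers tested (N, Sox100B, E(spl)mbeta-HLH, zfh2, Snoo and klu), 3 rose in SvbAct against Ctrl, where 3.44% of all genes passed. They were N, Sox100B and E(spl)mbeta-HLH (edgeR adjusted p 0.00430, 0.00556 and 0.00584). In SvbAct against the libraries labelled RNAiSvb, 4 of the 6 were called higher, where 6.26% of all genes passed. The list summed to 618 to 670.4 CPM in SvbAct and 559.6 to 617 CPM in Ctrl. The largest part was Snoo, which averaged 397 CPM in SvbAct and 473 CPM in Ctrl, so the sum does not show these rises. Of 8 enteroendocrine markers, 1 (Dh31) was lower in the libraries labelled RNAiSvb than in Ctrl (log2 fold change -2.14, edgeR adjusted p 0.00629) and higher in SvbAct than in the libraries labelled RNAiSvb (2.37, edgeR adjusted p 0.00136). Over all genes tested, 1.36% and 6.26% passed in these contrasts. The part of these cell types in the results below was not tested. In bulk tissue such as this, fewer cells of a type and less RNA per cell cannot be told apart.

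Per length of exon, Hsc70-4 and Hsp83 were the most abundant of the set. In Ctrl, Hsc70-4 averaged 1243 RPKM (CPM per kilobase of exon) and stood higher than 99.3% of the genes tested. Hsp83 followed at 892 RPKM, and its 2 Ctrl libraries did not overlap those of Hsc70-4. DnaJ-1 averaged 406 RPKM and Hsp26 also 406 RPKM, and these neighbours overlapped. Both were above 97.7% of the genes tested. Hsp68, an inducible HSP70 protein, averaged 287 RPKM, Hsp27 119.9 RPKM and Hsp23 67.7 RPKM. Hsf averaged 30.6 RPKM and Hsp67Bc 8.66 RPKM, near the middle of all genes (46.0% of the genes tested were at or below it). Apart from DnaJ-1 and Hsp26, each gene's Ctrl range lay above that of the next in this order. Hsp68 stood above 96.8% of the genes tested, so Hsp26 and Hsp68 were also among the more abundant transcripts per length in Ctrl.

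The genes differ in structure. Hsp23, Hsp26, Hsp27, Hsp67Bc and Hsp68 have only single-exon transcripts in the annotation, as do 10.6% of the 8671 tested genes that could be matched to it. Hsp83 has 2 exons, Hsc70-4 and DnaJ-1 have transcripts of 1 or 2 exons, and Hsf has 7 to 9. Among the listed genes, Hsp67Bc, Hsp22, Hsp26, Hsp23 and Hsp27, lie in one cluster on chromosome arm 3L from 9371511 to 9385694 (BDGP6, dm6 coordinates).

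**Figure D1:**
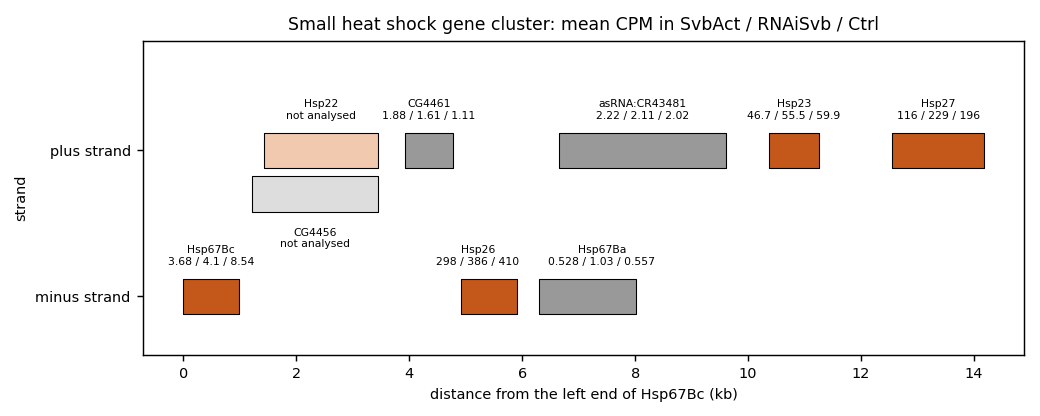
Map of the small heat shock gene cluster, with distance from the left end of Hsp67Bc in kilobases on the x axis and the 2 strands on the y axis. Orange boxes are genes described here, grey boxes other annotated genes, pale boxes genes not analysed here, and the numbers are mean CPM in SvbAct, the libraries labelled RNAiSvb and Ctrl. Hsp26, Hsp27 and Hsp23 have group means between 46.7 and 409.8 CPM, while those of Hsp67Ba, CG4461 and asRNA:CR43481 in the same cluster lie between 0.528 and 2.22 CPM.

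The cluster was not expressed as a block. It holds 9 annotated genes, of which 7 were measured. Hsp26 averaged 298 CPM in SvbAct, 386 CPM in the libraries labelled RNAiSvb and 409.8 CPM in Ctrl. Hsp67Ba, the next gene on the same strand and also of the small heat shock family, averaged 0.528, 1.03 and 0.557 CPM in the same groups. CG4461, also of that family, averaged 1.88, 1.61 and 1.11 CPM. Hsp67Ba (9377802 to 9379534) and asRNA:CR43481 (9378160 to 9381119) overlap on opposite strands. Strand handling was not given, so reads of Hsp67Ba may have been left uncounted there.

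Of the small heat shock genes, Hsp26 (FBgn0001225, 3L, 9376418 to 9377427) encodes a cytosolic holdase. It had 283, 276 and 336 CPM in SvbAct, 554, 371 and 232 CPM in the libraries labelled RNAiSvb, and 409.8 CPM in each of the 2 Ctrl libraries. All 3 SvbAct libraries were below Ctrl, while the libraries labelled RNAiSvb lay on both sides of it. The log2 fold change of SvbAct against Ctrl was -0.46 (SE 0.29, 95% interval -1.10 to 0.19) and did not pass the threshold of an adjusted p under 0.05 (edgeR quasi-likelihood adjusted p 0.458). That of the libraries labelled RNAiSvb against Ctrl was -0.087 (95% interval -0.74 to 0.56), and 0.0031 when scaled by library totals alone.

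Hsp27 (FBgn0001226, 3L, 9384063 to 9385694) encodes a small heat shock protein found mainly in the nucleus. It had 92.7, 86.3 and 168 CPM in SvbAct, 309, 270.1 and 109 CPM in the libraries labelled RNAiSvb, and 206 and 185 CPM in Ctrl. SvbAct lay below Ctrl without overlap, but it overlapped the libraries labelled RNAiSvb through replicate 3 of each group. SvbAct against the libraries labelled RNAiSvb gave a log2 fold change of -0.99 (SE 0.36, 95% interval -1.79 to -0.18, edgeR adjusted p 0.131). Without RNAiSvb replicate 3 it was -1.32 and passed the threshold (edgeR adjusted p 0.0300). With each other library left out it ran from -1.36 to -0.71 and did not pass (edgeR adjusted p 0.0661 to 0.322). The DESeq2 Wald test on all 8 libraries called it (log2 fold change -0.97, DESeq2 adjusted p 0.0486). Against Ctrl the SvbAct estimate was -0.76 (SE 0.40, edgeR adjusted p 0.363). Its exons overlap CR43483 on the other strand by 49 bases.

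Hsp23 (FBgn0001224, 3L, 9381882 to 9382765), a cytosolic small heat shock protein, had 33.7, 49.3 and 57.0 CPM in SvbAct, 80.3, 70.8 and 15.4 CPM in the libraries labelled RNAiSvb, and 50.1 and 69.6 CPM in Ctrl. The groups overlapped in every comparison. The spread inside the group labelled RNAiSvb, where the highest library was 5.20-fold above the lowest, exceeded any difference between group means. The SvbAct estimate against Ctrl was -0.36 with a 95% interval of -1.51 to 0.79, that is, 0.352-fold to 1.73-fold.

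Hsp67Bc (FBgn0001229, 3L, 9371511 to 9372497) encodes a small heat shock protein that works with the BAG-domain protein Starvin in the autophagic clearance of damaged proteins. It was the lowest of the 9 in counts, with 60, 49 and 76 in SvbAct, 105, 79 and 86 in the libraries labelled RNAiSvb, and 149 and 151 in Ctrl. On the CPM scale it stood at 3.31, 3.41 and 4.33 in SvbAct, 4.77, 3.38 and 4.16 in the libraries labelled RNAiSvb, and 7.97 and 9.12 in Ctrl. SvbAct and the libraries labelled RNAiSvb lay below both Ctrl libraries and overlapped each other. The log2 fold change was -1.21 in SvbAct against Ctrl (SE 0.32, edgeR adjusted p 0.0717) and -1.06 in the libraries labelled RNAiSvb against Ctrl (SE 0.32, edgeR adjusted p 0.170). These comparisons share the 2 Ctrl libraries. The SvbAct difference passed the threshold with the DESeq2 Wald test (log2 fold change -1.19, DESeq2 adjusted p 0.0179) and with edgeR's likelihood ratio test (-1.21, adjusted p 0.0167), and the authors' deposited table calls it downregulated. For the libraries labelled RNAiSvb against Ctrl no tool passed it. SvbAct against the libraries labelled RNAiSvb gave -0.15 (95% interval -0.81 to 0.50).

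Among the HSP70 proteins, Hsp68 (FBgn0001230, 3R, 24055080 to 24057310) is strongly induced by heat, and the cognate Hsc70-4 is expressed constitutively. Hsp68 had 196, 182 and 393 CPM in SvbAct, 616, 472 and 112 CPM in the libraries labelled RNAiSvb, and 674 and 606 CPM in Ctrl. Every SvbAct library was below both Ctrl libraries, and the libraries labelled RNAiSvb ran from below all SvbAct libraries into the Ctrl range. Its log2 fold change in SvbAct against Ctrl, -1.32 (SE 0.55, 95% interval -2.53 to -0.10), was the furthest from 0 among the 9 genes and did not pass the threshold (edgeR adjusted p 0.251). Without RNAiSvb replicate 3, which enters this contrast only through the shared spread, the edgeR adjusted p was 0.0516. Over all libraries left out in turn, the estimate ran from -1.76 to -1.12 (edgeR adjusted p 0.0516 to 0.609). For the libraries labelled RNAiSvb against Ctrl the estimate was -0.68 (SE 0.55), -0.24 without replicate 3 of that group and -1.12 without its replicate 1. Exons of Hsp68 overlap CG6000 and lncRNA:CR44097 on the other strand by 26 bases in all.

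Hsc70-4 (FBgn0266599, 3R, 15242687 to 15246614) had 2928, 2968 and 3181 CPM in SvbAct, 2913, 3534 and 2663 CPM in the libraries labelled RNAiSvb, and 3474 and 3278 CPM in Ctrl. The values stayed within a narrow band, with SvbAct just below Ctrl and the libraries labelled RNAiSvb on both sides. The log2 fold changes were -0.16 for SvbAct against Ctrl (95% interval -0.59 to 0.27), -0.15 for the libraries labelled RNAiSvb against Ctrl (-0.58 to 0.27) and -0.0050 between SvbAct and the libraries labelled RNAiSvb (-0.39 to 0.38). None of these passed the threshold (edgeR adjusted p 0.726, 0.776 and 0.989).

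DnaJ-1 (FBgn0263106, 3L, 5750029 to 5752189) encodes the main inducible HSP40 protein, which delivers clients to HSP70. It had 564, 399 and 595 CPM in SvbAct, 758, 611 and 474 CPM in the libraries labelled RNAiSvb, and 809 and 947 CPM in Ctrl. SvbAct and the libraries labelled RNAiSvb were below both Ctrl libraries and overlapped each other. The log2 fold change was -0.76 in SvbAct against Ctrl (SE 0.24, 95% interval -1.29 to -0.23, edgeR adjusted p 0.127) and -0.52 in the libraries labelled RNAiSvb against Ctrl (SE 0.24, 95% interval -1.04 to 0.013, edgeR adjusted p 0.379).

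Hsp83 (FBgn0001233, 3L, 3192969 to 3197059) encodes the cytosolic HSP90 protein, which is both heat-inducible and abundant without stress. It had 2464, 1582 and 2029 CPM in SvbAct, 2268, 3092 and 2951 CPM in the libraries labelled RNAiSvb, and 2422 and 2856 CPM in Ctrl. SvbAct reached into the range of the other groups through replicate 1. The log2 fold changes were -0.38 in SvbAct against Ctrl (SE 0.23, edgeR adjusted p 0.441), 0.070 in the libraries labelled RNAiSvb against Ctrl (SE 0.24, edgeR adjusted p 0.931) and -0.45 in SvbAct against the libraries labelled RNAiSvb (SE 0.21, edgeR adjusted p 0.227). Its exons overlap CG14966 on the other strand by 15 bases.

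Hsf (FBgn0001222, 2R, 18130303 to 18134634), the transcription factor of the response, had 77.4, 84.6 and 83.8 CPM in SvbAct, 96.7, 101 and 96.0 CPM in the libraries labelled RNAiSvb, and 78.6 and 99.6 CPM in Ctrl. SvbAct lay below the libraries labelled RNAiSvb without overlap, and Ctrl spanned both. That difference was -0.26 on the log2 scale (SE 0.14, 95% interval -0.57 to 0.051, edgeR adjusted p 0.291). Against Ctrl the estimates were -0.12 in SvbAct (95% interval -0.47 to 0.22) and 0.14 in the libraries labelled RNAiSvb (-0.21 to 0.48).

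**Figure D2:**
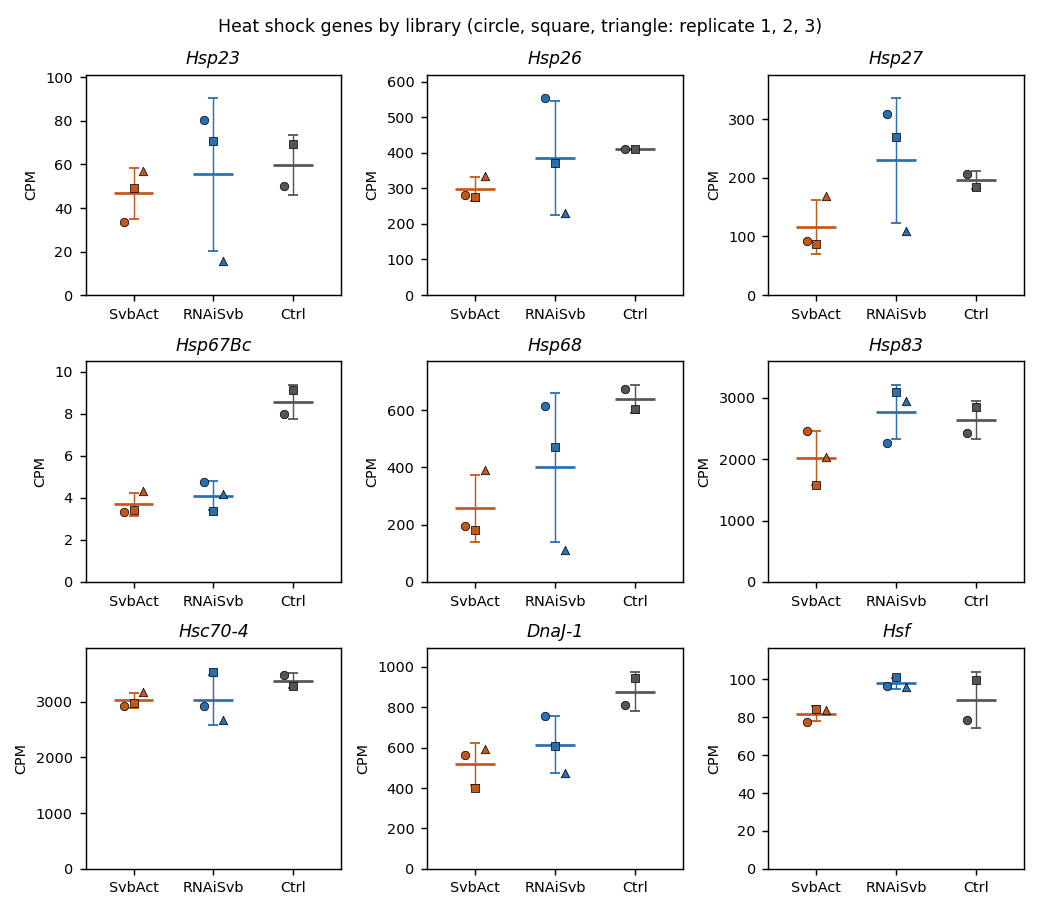
CPM of the 9 heat shock genes (y axis of each panel, starting at 0) in SvbAct, the libraries labelled RNAiSvb and Ctrl (x axis). Points are libraries with replicates 1, 2 and 3 as circle, square and triangle, and lines and bars are the group mean and SD. Hsp68, Hsp23 and Hsp27 have a wide spread among the libraries labelled RNAiSvb because replicate 3 is far below the other 2, whereas Hsc70-4 and Hsf vary little.

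By edgeR's quasi-likelihood test, 0 of the 9 genes were past the threshold in SvbAct against Ctrl, where 3.44% of all genes tested were. An unadjusted p under 0.05 was reached by 3 of the 9 (Hsp67Bc, DnaJ-1 and Hsp68, all lower in SvbAct), against 17.4% of all genes. That count was 1 without Ctrl replicate 2, and 5 without RNAiSvb replicate 3 or with only the SvbAct and Ctrl libraries fitted. Leaving out any of the other 6 libraries gave 2 to 4. The DESeq2 Wald test called 1 of the 9 (Hsp67Bc) and 7.31% of the genes it tested. The estimate was negative for 9 of the 9 genes, with a median log2 fold change of -0.46, while 51.1% of all genes tested had a negative estimate and their median was -0.013. For 6 of the 9 (Hsp26, Hsp27, Hsp67Bc, Hsp68, Hsc70-4 and DnaJ-1) every SvbAct library was below both Ctrl libraries, as for 20% of all genes. Without Ctrl replicate 2 the estimate of Hsf became 0.057, and the other 8 stayed negative in every alternative run. The authors' deposited table likewise calls 1 of the 9, Hsp67Bc, in this comparison and 0 of the 9 in the libraries labelled RNAiSvb against Ctrl. The 9 genes were measured in the same libraries, so they are not independent observations.

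In the libraries labelled RNAiSvb against Ctrl, 0 of the 9 passed in edgeR's test, where 1.36% of all genes did, and 0 passed in the DESeq2 Wald test, where 4% did. An unadjusted p under 0.05 was reached by 1 gene, Hsp67Bc, against 13.6% of all genes. The estimates were negative for 6 and positive for 3 (Hsp27, Hsp83 and Hsf), with a median of -0.11, and 47.6% of all genes were negative. Only Hsp67Bc and DnaJ-1 were below both Ctrl libraries in each of the 3 libraries, as were 17% of all genes. The estimates of Hsp67Bc, Hsp68, Hsc70-4 and DnaJ-1 stayed negative with every library left out in turn, while those of the other 5 changed sign with at least 1 of them left out. Hsp23 and Hsp26 had positive estimates of 0.33 and 0.17 without replicate 3. The count at an unadjusted p under 0.05 ran from 0, without Ctrl replicate 2, to 2, without RNAiSvb replicate 1 or SvbAct replicate 2.

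Between SvbAct and the libraries labelled RNAiSvb, 0 of the 9 passed in edgeR's quasi-likelihood test, against 6.26% of all genes. Hsp27 alone had an unadjusted p under 0.05, against 23.7% of all genes, and it was also the 1 gene called by the DESeq2 Wald test, which called 12% of the genes it tested. The 9 estimates were all negative, with a median of -0.26, as were 51.5% of all genes. That of Hsc70-4 was close to 0 and turned positive under several settings. Hsf was the 1 gene whose SvbAct libraries were all lower, as for 14.9% of all genes. With 1 library left out, the number of the 9 with an unadjusted p under 0.05 was 4 without RNAiSvb replicate 3, 0 without RNAiSvb replicate 2 or SvbAct replicate 2, and 1 without any of the other 5. Without RNAiSvb replicate 3, 1 of the 9 passed the threshold, Hsp27, and 332 of all genes did.

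**Figure D3:**
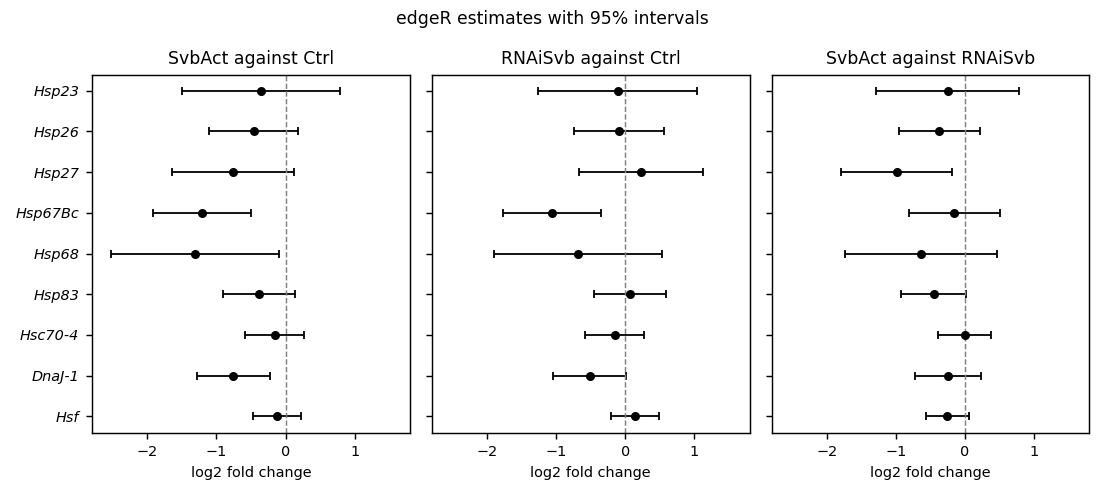
Log2 fold change (x axis) of each of the 9 heat shock genes (y axis) in the 3 contrasts, as points with 95% intervals from edgeR's quasi-likelihood fit, which are not adjusted for the number of genes. All 9 points of SvbAct against Ctrl are negative, and the intervals of Hsp67Bc, Hsp68 and DnaJ-1 lie wholly under 0 there.

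The spread between replicates of a group differed widely among the 9 genes. The pooled within-group SD of log2 CPM was 0.92 for Hsp68, larger than or equal to that of 98.1% of the genes with an average log2 CPM of at least 2. It was 0.88 for Hsp23 (97.9%), 0.62 for Hsp27 (94.1%) and 0.41 for Hsp26 (81.1%). At the other end, Hsf had an SD of 0.12 (7.38%) and Hsc70-4 of 0.14 (12.8%). DnaJ-1, Hsp83 and Hsp67Bc lay between, at 0.30, 0.26 and 0.21. The regulator and the constitutive HSP70 gene were thus among the more even genes between replicates, and Hsp68, Hsp23 and Hsp27 among the more variable, while Hsp67Bc, at 36.1%, was more even than most genes.

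**Figure D4:**
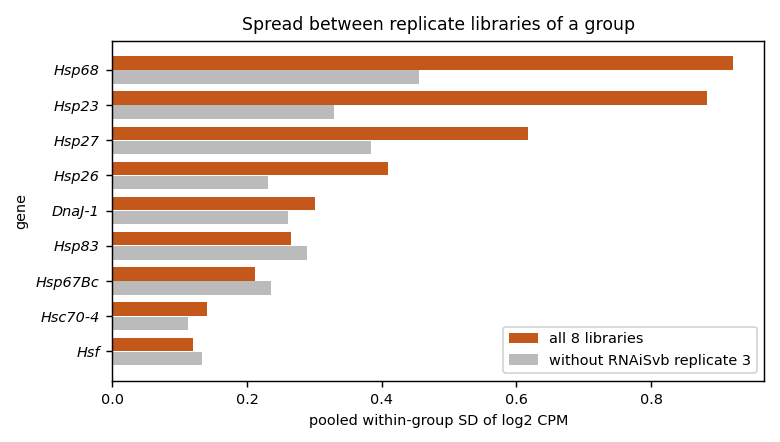
Pooled within-group SD of log2 CPM (x axis, starting at 0) of each heat shock gene (y axis), over all 8 libraries in orange and without RNAiSvb replicate 3 in grey. Without that library the SD of Hsp68 is 0.46 in place of 0.92 and that of Hsp23 is 0.33 in place of 0.88.

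A single library carried much of that spread. RNAiSvb replicate 3 was the lowest of its group in 7 of the 9 genes, as it was in 30.6% of all genes tested. Hsp68 stood at 112 CPM there against 616 and 472 CPM in the other 2 libraries of the group, a range of 5.49-fold. Without this library, chosen for exclusion after the values were seen, Hsp68 still had a larger SD than most genes (0.46, 85.4%), Hsp27 had 0.38 (77.6%), Hsp23 0.33 (68.3%) and Hsp26 0.23 (43.2%). The same library had the highest sum of visceral muscle markers, 1602 CPM. SvbAct replicate 3, which was the highest of its group in 7 of the 9 genes (31.8% of all genes), had the lowest sum of muscle markers, 249 CPM. In the libraries labelled RNAiSvb, replicate 2 had the lowest muscle sum, 259 CPM, and was not the highest for Hsp23, Hsp26, Hsp27, Hsp67Bc or Hsp68. The part of muscle tissue in the heat shock values was not tested.

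**Figure D5:**
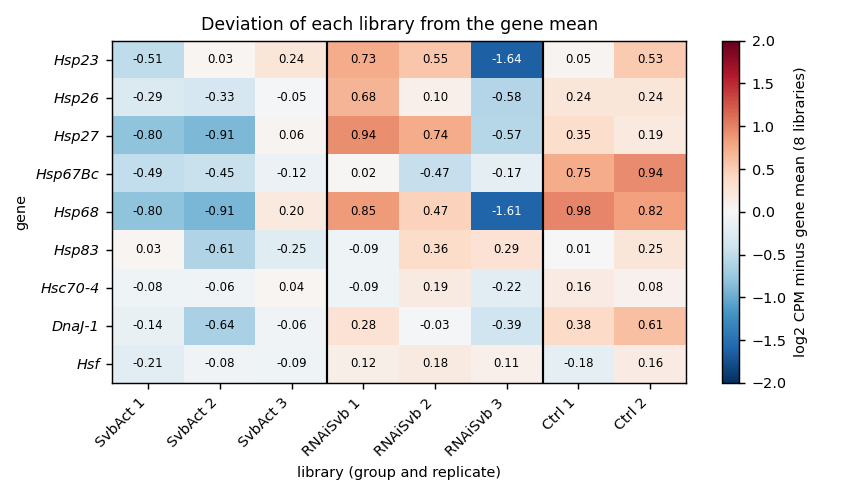
Log2 CPM of each heat shock gene (rows) in each library (columns) as the difference from the gene's mean over the 8 libraries, with red above and blue below the mean and black lines between SvbAct, the libraries labelled RNAiSvb and Ctrl. Hsp23 and Hsp68 are at -1.64 and -1.61 in RNAiSvb replicate 3, and both Ctrl libraries are at or above the mean for all genes except Hsf in Ctrl replicate 1.

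The mean of these differences over the 4 small heat shock genes Hsp23, Hsp26, Hsp27 and Hsp67Bc and over Hsp68 gave each library a position. DnaJ-1 and Hsp83 are heat-inducible too but were not part of it. It was -0.58, -0.51 and 0.067 in SvbAct, 0.64, 0.28 and -0.91 in the libraries labelled RNAiSvb, and 0.47 and 0.55 in Ctrl. SvbAct lay below Ctrl in all 3 libraries, while the libraries labelled RNAiSvb gave both the highest and the lowest position of the 8. Of the 4 genes that were not part of this mean, DnaJ-1 followed it most closely over the 8 libraries (Pearson's r 0.85), then Hsc70-4 (0.69), Hsf (0.28) and Hsp83 (0.14). These correlations describe 8 libraries that share their groups.

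Outside the 9, 6747 genes with an average log2 CPM of at least 2 were ranked by the same correlation. The 5 most alike were CG4004 (r 0.95), CG31296 (0.93), chb (0.93), which encodes a microtubule plus-end protein, Tim17b (0.91), a subunit of the mitochondrial import machinery, and atos (0.91). CG31296 had 30.2, 39.3 and 92.9 CPM in SvbAct, 99.6, 75.0 and 31.6 CPM in the libraries labelled RNAiSvb, and 77.1 and 87.5 CPM in Ctrl. With 8 libraries and this many genes, correlations of that size are found by search. Without RNAiSvb replicate 3 the 5 genes had an r of 0.90 to 0.95 and ranked between 12 and 53.

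The Hsp70 genes proper, which encode the major heat-induced HSP70 protein, are 6 nearly identical copies, and reads cannot be assigned to single copies with certainty. How reads matching several copies were counted was not given, so such reads may be missing from the counts. In Ctrl the copies averaged from 3.14 CPM (Hsp70Aa) to 457 CPM (Hsp70Ab). Summed, the counts that were assigned to the copies gave 359, 378 and 496 CPM in SvbAct. They gave 764, 127 and 288 CPM in the libraries labelled RNAiSvb, and 647 and 730.3 CPM in Ctrl. The sum is not a measure of all Hsp70 RNA. SvbAct lay below Ctrl without overlap, as for Hsp68, and the libraries labelled RNAiSvb again spanned both. Their lowest library was replicate 2, not replicate 3 as for Hsp68. Of the 10 genes of the HSP70 list tested (these 6, Hsc70-1, Hsc70-3, Hsc70-5 and Hsp110), 0 passed in any contrast with edgeR's quasi-likelihood test or the DESeq2 Wald test, with 2, 0 and 2 at an unadjusted p under 0.05 in SvbAct against Ctrl, the libraries labelled RNAiSvb against Ctrl and SvbAct against those libraries. Over all genes tested these shares were 17.4%, 13.6% and 23.7%. Median log2 fold changes were -0.32, -0.061 and -0.20. Hsc70-3, the HSP70 protein of the endoplasmic reticulum, had 1210.5, 870.2 and 1633 CPM in SvbAct, 1878, 1325 and 1474 CPM in the libraries labelled RNAiSvb, and 1833 and 2463 CPM in Ctrl (SvbAct against Ctrl log2 fold change -0.80, SE 0.27, edgeR adjusted p 0.166). With only SvbAct and Ctrl libraries fitted, 1 gene of this list passed with edgeR in SvbAct against Ctrl, as did 312 of all genes. Without RNAiSvb replicate 1, 2 genes passed with edgeR in the libraries labelled RNAiSvb against Ctrl and 1 in SvbAct against those libraries. Without SvbAct replicate 3, 1 passed there too. The range of all genes passing with a library left out is given in the last section. These few calls are not read as a result about the list.

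The cochaperones of HSP70 had 14 genes tested. Of these, 0 passed with edgeR's quasi-likelihood test in any contrast, with 6, 6 and 4 at an unadjusted p under 0.05 in the same order, against 17.4%, 13.6% and 23.7% of all genes. Of those 6, 6 and 4 genes, 5, 6 and 2 were lower in the group named first. The DESeq2 Wald test called 2 genes of the list, only in SvbAct set against the libraries labelled RNAiSvb, where it called 12% of the genes it tested. In that contrast alone, edgeR's likelihood ratio test called 1. The quasi-likelihood test of edgeR without RNAiSvb replicate 1 also called 1 there. The medians were -0.31, -0.18 and -0.051. Starvin (stv), the BAG-domain partner of Hsp67Bc named above, had 999, 854 and 1021 CPM in SvbAct, 1228, 1019.7 and 802 CPM in the libraries labelled RNAiSvb, and 1383 and 1439 CPM in Ctrl. All 6 libraries with a further transgene were below both Ctrl libraries, and the log2 fold changes of -0.56 and -0.47 did not pass (edgeR adjusted p 0.194 and 0.348). Its correlation with the mean of the 5 genes was 0.88, the 15th of the 6747, and 0.82 without RNAiSvb replicate 3, which ranked it 192.

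In the HSP90 list, 0 of 10 genes tested passed in the contrasts with Ctrl, where 3.44% and 1.36% of all genes did. In SvbAct set against the libraries labelled RNAiSvb, 1 of the 10 passed, against 6.26% of all genes. This was Trap1, the HSP90 protein of mitochondria, with 51.8, 47.6 and 52.1 CPM in SvbAct against 77.2, 106 and 88.2 CPM in the libraries labelled RNAiSvb. Ctrl lay between, at 72.2 and 54.8 CPM. The log2 fold change was -0.84 (SE 0.17, edgeR adjusted p 0.0174). The call was lost without SvbAct replicate 2 (-0.80, edgeR adjusted p 0.0599) and without RNAiSvb replicate 2 (-0.71, edgeR adjusted p 0.0571). The list's medians were -0.10, 0.020 and -0.11 in the same 3 contrasts, with 1, 1 and 1 gene at an unadjusted p under 0.05. Over all genes tested the shares at that p were 17.4%, 13.6% and 23.7%.

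The other chaperone groups had 0 genes past the threshold with edgeR's quasi-likelihood test and with the DESeq2 Wald test. The CCT chaperonin, which folds actin and tubulin, had 7 subunits tested, all with positive estimates in both contrasts with Ctrl, where the medians were 0.25 in SvbAct and 0.27 in the libraries labelled RNAiSvb. Of these, 0 in SvbAct and 1 in the libraries labelled RNAiSvb had an unadjusted p under 0.05, against 17.4% and 13.6% of all genes. Negative estimates were found for 51.1% and 47.6% of all genes in these contrasts. In SvbAct against Ctrl, the CCT estimates thus had the opposite sign to those of the 9 heat shock genes. The mitochondrial chaperonins Hsp60A and CG11267 had median estimates of -0.21 in SvbAct and 0.31 in the libraries labelled RNAiSvb against Ctrl, and -0.52 between the groups. An unadjusted edgeR p under 0.05 was reached by 0, 1 and 2 of these 2 genes in the same order. Over all genes tested the shares at that p were 17.4%, 13.6% and 23.7%. Hsp60A had 236, 307 and 268 CPM in SvbAct, 368, 482 and 366 CPM in the libraries labelled RNAiSvb, and 341 and 224 CPM in Ctrl. The 4 other small heat shock genes tested had medians of -0.065, 0.72 and -0.56 in the 3 contrasts. Of these 4 genes, 0 reached an unadjusted p under 0.05, against the same shares of all genes. These medians rest mostly on genes with few counts. Hsp67Ba had 1 to 39 counts per library, CG4461 18 to 51 and l(2)efl 25 to 264. The median of 0.72 lay between the estimates of CG4461 (0.54, SE 0.67) and Hsp67Ba (0.89, 95% interval -1.59 to 3.38). CG14207, with group means of 107 to 119 CPM, had estimates of -0.090, 0.062 and -0.15.

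Genes that respond quickly to stress and tissue handling gave another reading of the same libraries. Of the 7 tested (Atf3, kay, Jra, puc, Gadd45, Hr38 and sr), 7 had positive estimates in SvbAct against Ctrl, with a median log2 fold change of 0.42, and Atf3 passed the threshold. Atf3, which encodes a stress-responsive bZIP transcription factor, had 1653, 1460.0 and 1629 CPM in SvbAct, 879, 619 and 757 CPM in the libraries labelled RNAiSvb, and 660.4 and 938 CPM in Ctrl. It was higher in every SvbAct library than in any other, with a log2 fold change of 0.98 against Ctrl (SE 0.22, edgeR adjusted p 0.0393). Its log2 fold change over the libraries labelled RNAiSvb was 1.07 (SE 0.20, edgeR adjusted p 0.0112). The call against Ctrl was lost with the replicate number as a block (0.96, edgeR adjusted p 0.0989) and when any of the 5 libraries compared, or RNAiSvb replicate 3, was left out (0.75 to 1.26, edgeR adjusted p 0.0539 to 0.395). The other 6 genes did not pass in any contrast. In SvbAct against Ctrl, the 9 heat shock estimates were negative and these 7 were positive, while 51.1% of all genes were negative. With edgeR's quasi-likelihood test, 0 of the 9 and 1 of the 7 passed there, against 3.44% of all genes. In SvbAct against the libraries labelled RNAiSvb, 6 of the 7 were positive and 1 was negative. Whether the 2 sets are linked was not tested.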

How the data were processed

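Whole-number counts per FlyBase gene were deposited by the authors. Per the submitters' processing notes the tools were FastQC 0.11.5, STAR 2.5.2b, HTSeq 0.6.0 and edgeR, on dm6, but options, annotation and strand handling were not given in the sources used here. Per the labels' protocols, total RNA was made into NuGEN Ovation SoLo libraries and read as single reads of 100 nt. The authors' text calls, in the same deposited table, were read for the heat shock genes.

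The counts were analysed with R 4.3.3, edgeR 4.0.16 and DESeq2 1.42.0. Of 9177 genes, filterByExpr kept 8775. TMM factors and edgeR's quasi-likelihood test were applied to the 8 libraries together, with the group as the only term, with Benjamini-Hochberg adjustment over all genes of a contrast and a threshold of 0.05. An SE is the size of the log2 fold change over the root of the F statistic, and intervals use the test's t quantiles. The code was tested on simulated data. Log2 CPM used a prior count of 2. Exon lengths and positions are from Ensembl 115 (BDGP6.54), which has dm6 coordinates, and symbols matched 9060 identifiers.

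All heat shock genes were named, from the other lists up to 3 genes past the threshold, and the 5 genes most alike by Pearson's r. Genes added to these after their values were seen are stv, Hsc70-3, Hsp60A and the Hsp70 sum. Values of Hsp67Ba, CG4461, asRNA:CR43481, l(2)efl, CG14207, Snoo, Hsp70Aa and Hsp70Ab were also given outside this naming rule. The genes and lists were chosen with earlier results of these data known. No promoter or protein sequences were used here. The series text calls the replicates biological and places them on different days. The alternatives were other scalings, filters and tests, only the groups compared, a replicate block and each library left out, and the figures without RNAiSvb replicate 3 for spread and likeness were added after the values were seen. Correlations of deviations between the 7 same-numbered pairs of libraries ran from -0.065 to 0.14, with 2 over 0.1. Those between libraries of different numbers ran from -0.20 to 0.15. Deviations of the 2 Ctrl libraries mirror each other, so these values are not independent and cannot settle whether numbers are pairs. In the main fit numbers were not treated as pairs.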

Additional observations from a re-analysis of the deposited data

How the results depend on the processing

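The count of heat shock genes past the threshold was 0 in each contrast under DESeq2 size factors, library totals, both other filters, fits restricted to the groups in a contrast, the replicate block, the stricter thresholds and, with 1 exception, with a library left out. It was 1 in SvbAct against Ctrl with the DESeq2 Wald test and 1 with edgeR's likelihood ratio test (Hsp67Bc in both), and 1 in SvbAct against RNAiSvb with the DESeq2 Wald test (Hsp27). Leaving out a library gave 0 to 1 there, the 1 being Hsp27 without RNAiSvb replicate 3. The labels do not say whether a replicate number is the same day in each group. With the number as a block 0 heat shock genes passed in any contrast, while all genes called were 269, 124 and 443 against 302, 119 and 549. All genes called were 641, 351 and 1054 with the DESeq2 Wald test and 610, 329 and 955 with the likelihood ratio test. An adjusted p under 0.01 left 89, 44 and 160, and a log2 fold change of at least 1 left 361 of 549. With a library left out they ran from 48 to 368, 23 to 141 and 262 to 497. The cause was not tested. Of 432 log2 fold changes of the 9 genes under the alternatives, 411 kept direction and side of the threshold, 17 changed sign and 4 passed the threshold. The sign changes were of estimates near 0 or of estimates decided by a library. Hsp26 in RNAiSvb against Ctrl became 0.0031 under library totals. Hsc70-4 in SvbAct against RNAiSvb became 0.013 with DESeq2 size factors and with the DESeq2 Wald test, 0.015 with at least 10 counts in every library and 0.0019 with the replicate block. With a library left out, SvbAct against Ctrl ran from -0.29 to 0.057 for Hsf. RNAiSvb against Ctrl ran from -0.46 to 0.33 for Hsp23, -0.43 to 0.17 for Hsp26, -0.032 to 0.56 for Hsp27, -0.044 to 0.21 for Hsp83 and -0.025 to 0.32 for Hsf. SvbAct against RNAiSvb ran from -0.69 to 0.11 for Hsp23 and from -0.090 to 0.12 for Hsc70-4. Library totals shifted the median of all genes to 0.13 in RNAiSvb against Ctrl, against 0.022 with TMM. With 2 Ctrl libraries, 1 is left when either is dropped, and it is then assumed to vary like the other groups.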
